A study of Zea mays with 2 samples.

Results

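The genes described here are 4 maize (Zea mays) transcription factor genes known as regulators of aleurone or epidermis. They were chosen by their gene identifiers from the 41406 gene models of the deposited tables: nkd1 (GRMZM2G129261), nkd2 (GRMZM5G884137), vp1 (GRMZM2G133398) and ocl1 (GRMZM2G026643). All 4 were found in both tables. Transcripts had been measured by RNA-seq in endosperm of kernels 15 days after pollination, in the defective kernel mutant dek44 and in wild type, with 1 library of each. The series text speaks of triplicates, but each genotype has a single column of values, and what was pooled into it is not stated. No allele or inbred background is named in the labels. The gene mutated in dek44 is known to encode a protein of the mitochondrial ribosome, and its own level was not analysed here. With 1 library per genotype no difference has a replicate check and no test was made.

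Aleurone is the outermost endosperm layer, a sheet of cells around the starch-storing interior, and epidermis covers the embryo and the plant. NAKED ENDOSPERM 1 and 2 (nkd1, nkd2) are duplicate zinc finger factors of the INDETERMINATE domain family. When both are mutated, the kernel forms several layers of cells with poor aleurone identity, and both factors have been linked to regulation of vp1 and of the storage gene regulator opaque2. VIVIPAROUS1 (vp1) is a B3 domain factor, the maize counterpart of Arabidopsis ABI3, needed for abscisic acid responses, seed maturation and aleurone pigmentation. OUTER CELL LAYER1 (ocl1) is a homeodomain leucine zipper factor of class IV, known from the protoderm of the embryo and from epidermis.

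The 4 genes did not move as a group. In the dek44 library nkd1 was 2.11-fold lower than in wild type, nkd2 was within 2-fold, vp1 was 4.08-fold higher and ocl1 was 17.4-fold higher. Levels are RPKM, read numbers divided by gene length and by library total, so they can be compared between genes. The threshold used for counting was 2-fold on the scale log2(RPKM + 1), counted over genes that reached RPKM 1 in either library (expressed genes), and all 4 passed that filter. Past the threshold, 2 of the 4 were higher and 1 was lower. Of all 30136 expressed genes, 31.6% were past it higher and 3.7% lower, or 35.3% in either direction.

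RPKM is relative to the library, and over all expressed genes the log2 ratios had a median of 0.62, not 0. Starchy endosperm markers, zeins among them, were at a summed RPKM of 40619 in dek44, against 201671 in wild type, and 10 of 12 were past 2-fold lower (11 of 12 with the rescaling that follows). With the dek44 values rescaled so that the median ratio was 0, a shift of 0.76 on the log2 scale, 12% of genes were past 2-fold higher and 10.1% lower. Each of the 4 regulators is given on both scalings, and for the gene lists the counts are. Read numbers were recovered from the RPKM values, out of 22612657 reads for dek44 and 20861135 for wild type, and the 95% exact intervals on folds cover counting error only. The reads of a gene are the smallest numbers that fit, so the true numbers may be a multiple and the intervals narrower.

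nkd1 reached an RPKM of 81.3 in dek44, against 171 in wild type, from 3243 and 6307 reads. It was the most abundant of the 4 genes in both libraries and, in RPKM as deposited, the only one lower in dek44. Wild type exceeded dek44 2.11-fold (95% interval 2.02 to 2.20). Among expressed genes nkd1 ranked 2452 in dek44, against 713 in wild type. On the log2(RPKM + 1) scale its ratio was -1.07, and 3.27% of expressed genes had a lower ratio. With the median ratio set to 0 the log2 ratio was -1.82.

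nkd2 reached an RPKM of 16.8 in dek44, against 14.5 in wild type, from 681 and 542 reads. The libraries were close, with dek44 1.16-fold higher (1.03 to 1.30). The log2(RPKM + 1) ratio was 0.20, and 71.6% of expressed genes had a higher one. With the median ratio set to 0 it was -0.51, so its direction depends on the scaling, while it stayed within 2-fold under both.

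The duplicates therefore differed in their ratios by -1.29 on the log2 scale (nkd1 minus nkd2, 95% Wald interval from the read numbers -1.46 to -1.12), which is 2.44-fold and independent of the scaling of the libraries. nkd1 was 4.85 times as abundant as nkd2 in dek44 (4.47 to 5.28) and 11.9 times in wild type (10.9 to 12.96). Its share of the summed RPKM of the pair was 82.9% in dek44 (81.7 to 84.1) and 92.2% in wild type (91.6 to 92.8). The sum itself was 98.1 in dek44, against 186 in wild type, so the pair together was 1.90-fold lower in dek44. How reads that match both copies were counted is not stated, so their values are less certain than their sum. The storage gene regulator o2 (GRMZM2G015534), named above as linked to the NKD factors, reached an RPKM of 80.7 in dek44, against 456 in wild type. It is also 1 of the 12 starchy endosperm markers, of which 10 were past 2-fold lower. vp1, the other gene named as linked, was higher in dek44. A link of either to the NKD levels was not tested.

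**Figure D1:**
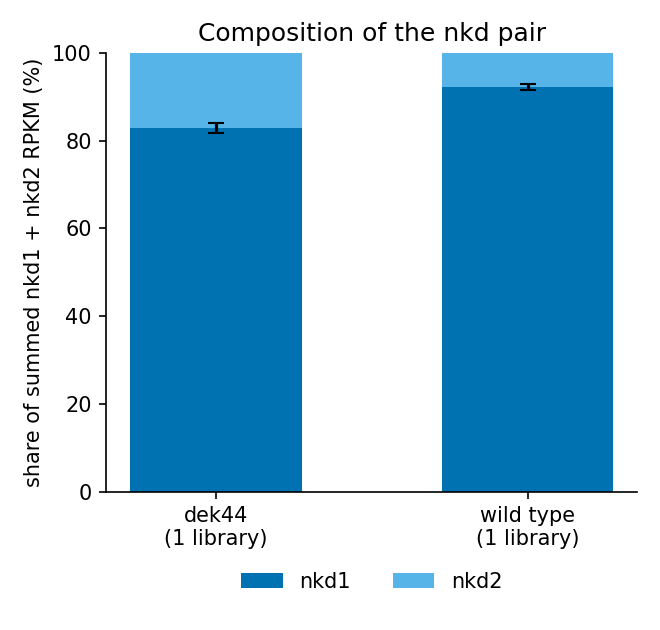
Share of nkd1 (dark) and nkd2 (light) in the summed RPKM of the pair, in percent, for the dek44 library and the wild-type library. Error bars are 95% exact binomial intervals for counting error. The nkd1 share was 82.9% in dek44 and 92.2% in wild type.

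vp1 reached an RPKM of 7.36 in dek44, against 1.80 in wild type, from 345 and 78 reads. It was 4.08-fold higher in dek44 (3.18 to 5.29). Its rank among expressed genes was 16594 in dek44, against 21799 in wild type. The log2(RPKM + 1) ratio was 1.58, and 13.2% of expressed genes had a higher ratio. With the median ratio set to 0 it was 0.93, in the same direction but under 2-fold on that scale.

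ocl1 reached an RPKM of 10.7 in dek44, against 0.617 in wild type, from 585 and 31 reads. In wild type it was under the RPKM of 1 used to call a gene expressed, and it passed the filter through dek44. It was 17.4-fold higher in dek44 (12.1 to 25.9), and its rank among expressed genes was 13614 in dek44, against 26747 in wild type. The log2(RPKM + 1) ratio was 2.86, and 2.06% of expressed genes had a higher one. With the median ratio set to 0 it was 2.18.

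**Figure D2:**
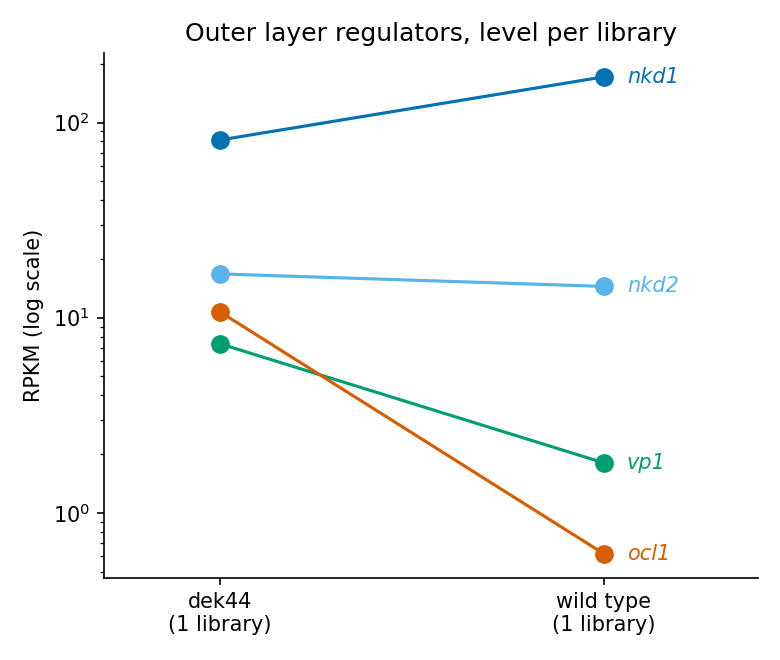
RPKM of nkd1, nkd2, vp1 and ocl1 on a log axis, 1 point per library, with lines joining the values of a gene. The span from nkd1 to the least abundant gene was narrower in dek44 (81.3 to 7.36) than in wild type (171 to 0.617), and the lines of vp1 and ocl1 cross.

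The order of levels differed between the libraries. In dek44 it was nkd1, nkd2, ocl1, vp1, and in wild type nkd1, nkd2, vp1, ocl1. In dek44 ocl1 exceeded vp1 1.46-fold (1.28 to 1.67), and nkd2 exceeded ocl1 1.56-fold (1.396 to 1.75). In wild type nkd2 exceeded vp1 8.02-fold (6.32 to 10.3), and vp1 exceeded ocl1 2.92-fold (1.91 to 4.59). All neighbours in both orders were apart by more than counting error, and the spread between plants is not known. nkd1 was 11.1 times as abundant as vp1 in dek44, against 95.1 times in wild type. It was 7.57 times as abundant as ocl1 in dek44, against 278 times in wild type.

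**Figure D3:**
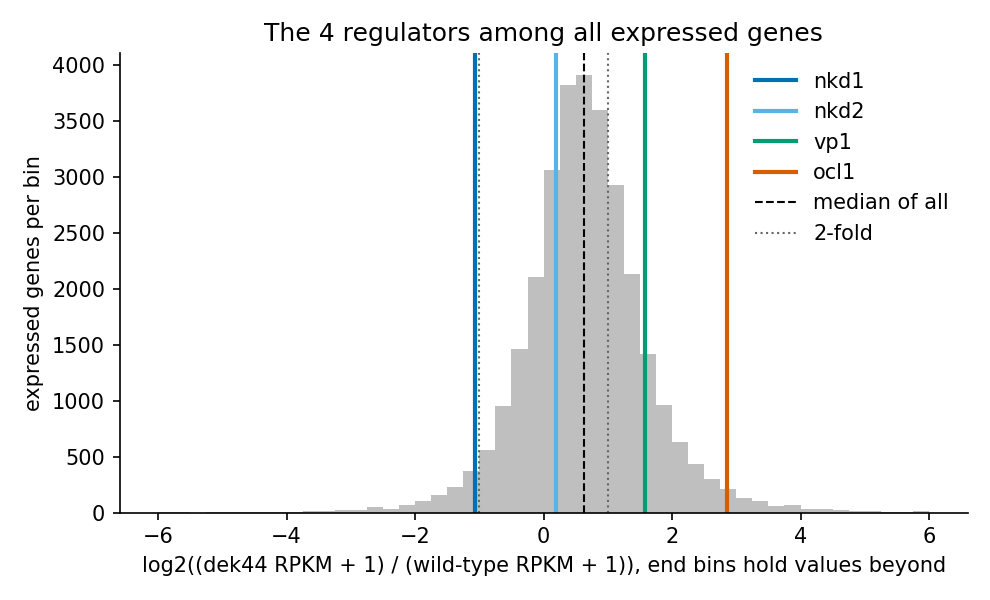
Number of expressed genes per bin of the log2(RPKM + 1) ratio of dek44 over wild type, with the 4 regulators as coloured lines, the median of all expressed genes as a dashed line and 2-fold as dotted lines. nkd1 (-1.07) lies in the lower tail, nkd2 (0.20) below the median of 0.62, vp1 (1.58) above it and ocl1 (2.86) in the upper tail.

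Of the 3 other OUTER CELL LAYER genes with values, ocl3 and ocl4 were past 2-fold higher in dek44 on the log2(RPKM + 1) scale, also with the median ratio set to 0, and ocl5 was not. Like ocl1, ocl3 and ocl4 were under RPKM 1 in wild type and passed the filter for expressed genes through dek44, where they were high, so their number is a description. Of all expressed genes, 31.6% were past 2-fold higher, and 12% with the median ratio set to 0. ocl4 (GRMZM2G123140), known for limiting hair formation on leaves and for anther wall development, reached an RPKM of 8.24 in dek44, against 0.163 in wild type. From 494 and 9 reads that was 50.6-fold higher (26.5 to 111). ocl3 (GRMZM2G116658) had 2.12 in dek44, against 0.0370 in wild type, a ratio of 57.2 (9.89 to 2295). That interval rests on 62 reads and 1 read, the smallest numbers that fit, which may be a multiple short. ocl5 (GRMZM2G130442) had 2.69 in dek44, against 1.08 in wild type, 2.48-fold higher (1.80 to 3.45) but at 0.82 on the log2(RPKM + 1) scale and so not past the threshold. With ocl1, the summed RPKM of the 4 genes was 23.8 in dek44, against 1.90 in wild type. ocl2 was not analysed here.

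Of the other genes known for specifying aleurone, the 3 with values were within 2-fold on the log2(RPKM + 1) scale under both scalings. The receptor-like kinase gene cr4 (GRMZM2G051637), needed for aleurone and epidermal identity, reached an RPKM of 7.49 in dek44, against 3.76 in wild type, 1.99-fold higher (1.58 to 2.53). sal1 (GRMZM2G117935), a vesicle sorting gene whose loss gives extra aleurone layers, had 128 in dek44, against 92.2 in wild type, 1.38-fold higher (1.29 to 1.49). The calpain gene dek1 (GRMZM2G321753), required for aleurone to form, had 13.3 in dek44, against 14.4 in wild type, a ratio of 0.927 (0.848 to 1.01). With the median ratio set to 0 the log2 ratios were 0.18 for cr4, -0.29 for sal1 and -0.80 for dek1. The direction of sal1 therefore depends on the scaling. In RPKM as deposited, the median log2(RPKM + 1) ratio of these 3 was 0.46, against 0.62 over all expressed genes. Most expressed genes were also within 2-fold, with 35.3% past it in either direction. With the median ratio set to 0, 12% were past it higher and 10.1% lower.

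**Figure D4:**
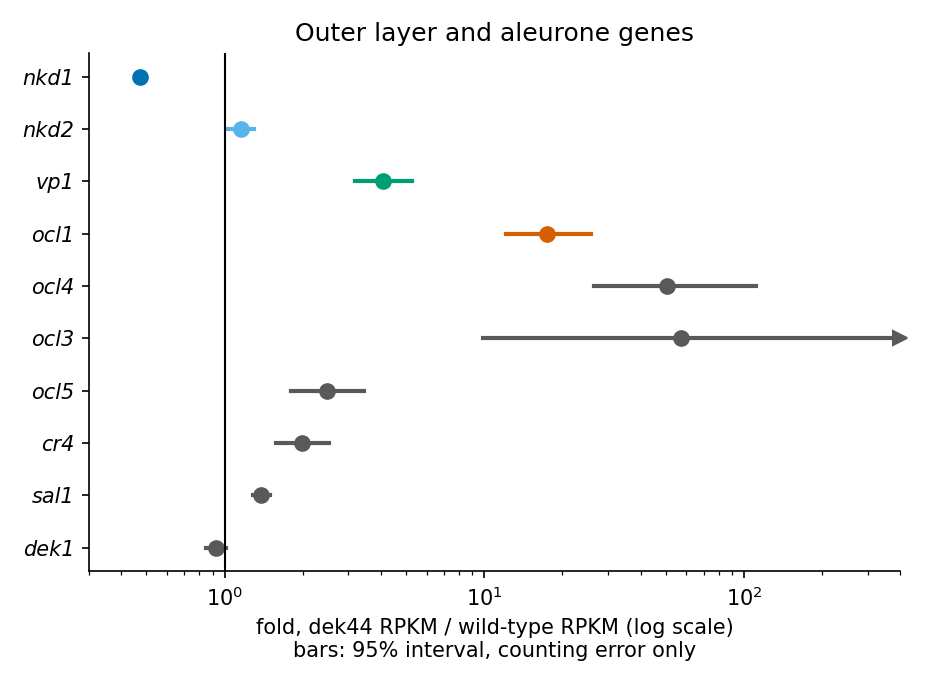
Plain fold of dek44 over wild type for the 4 regulators (coloured) and for ocl4, ocl3, ocl5, cr4, sal1 and dek1 (grey), on a log axis, with 95% intervals for counting error. An arrow marks an interval that runs past the axis. In RPKM as deposited, at the recovered read numbers, nkd1 is the 1 gene whose whole interval lies below 1. The interval of dek1 includes 1. The read numbers may be a multiple short, which would make the intervals narrower, so the place of dek1 is not settled.

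Lists of genes linked to these factors, matched by name, held 40 other genes with values, of which 30 were expressed. Of these, 15 were past 2-fold higher and 0 lower, with a median log2(RPKM + 1) ratio of 1.02, against 31.6% higher, 3.7% lower and a median of 0.62 over all expressed genes. With the median ratio of all genes set to 0, 7 were higher and 3 lower, against 12% and 10.1% of all expressed genes. Some of the 30 passed the filter through dek44 alone, so these counts are a description. The 30 also include genes that share a name with a listed gene and may not belong. Without them 12 were higher and 0 lower in RPKM as deposited, out of fewer genes than the 30. The median of 1.02 includes the genes that share a name. Beside the OCL and signalling genes above, no further INDETERMINATE domain gene of the list had a value, and id1 was not analysed here. Of 2 genes with ABI names, 0 were past 2-fold in either direction, at a median log2 ratio of -0.12, and 1, ABI22, was lower with the median ratio set to 0. ABI22 (GRMZM2G008356) reached an RPKM of 15.9 in dek44, against 25.7 in wild type, and ABI14 (GRMZM2G106673) had 12.6 in dek44, against 9.22 in wild type.

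Genes for synthesis of abscisic acid, the hormone whose seed responses need VP1, had 2 of 4 expressed members past 2-fold higher and 0 lower, at a median log2 ratio of 0.90, and 0 in either direction with the median ratio set to 0. Of all expressed genes, 31.6% were higher and 3.7% lower at a median of 0.62, and 12% and 10.1% after that rescaling. VP15 (GRMZM2G121468) reached an RPKM of 15.0 in dek44, against 4.37 in wild type. It acts in synthesis of the molybdenum cofactor used by the last enzyme of the pathway. lw1 (GRMZM2G027059), for an enzyme of plastid isoprenoid supply, had 12.2 in dek44, against 4.25 in wild type. The carotenoid desaturase gene vp9 (GRMZM2G454952) had 5.74 in dek44, against 3.82 in wild type. Another gene model of that name (GRMZM2G454928) was under RPKM 1 in both libraries, at 0 in dek44, against 0.394 in wild type. vp14 (GRMZM2G014392), for the cleavage enzyme that commits carotenoids to the hormone, was under RPKM 1 in both libraries, at 0.683 in dek44, against 0.265 in wild type. The remaining expressed member, PS1 (GRMZM2G135019), at 0.999 in dek44, against 1.43 in wild type, also has names of a gene for shoot gravity response and may not belong.

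Products of seed maturation, many of them under VP1 control, had 2 of 6 expressed members past 2-fold higher and 0 lower, at a median log2 ratio of 0.81, which is near the 31.6% and 0.62 of all expressed genes. The share of all expressed genes past 2-fold lower was 3.7%. After setting the median ratio to 0 the counts were 2 higher and 1 lower, against 12% and 10.1% of all expressed genes. The dehydrin gene dhn2 (GRMZM2G373522) reached an RPKM of 21.0 in dek44, against 3.70 in wild type, 5.67-fold higher (4.37 to 7.46). The globulin gene glb1 (GRMZM2G067919) had 40.4 in dek44, against 23.9 in wild type, and the catalase gene cat1 (GRMZM2G088212) had 128 in dek44, against 68.8 in wild type. The most abundant member, the globulin gene glb3 (GRMZM2G410134), had 2506 in dek44, against 4182 in wild type. The dehydrin gene dhn1 (GRMZM2G079440), also named rab17, was at 0.614 in dek44, against 0.380 in wild type, and EMB5 (GRMZM2G162659) was listed at 0 in both. The other member past 2-fold, GLB1 (GRMZM2G067402, 28.1 in dek44, against 0.0832 in wild type), carries haemoglobin names, and without it 1 of 5 was higher.

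Anthocyanin genes, which colour the aleurone under joint control of VP1 and the regulators c1 and r1, had 4 of 6 expressed members past 2-fold higher and 0 lower, at a median log2 ratio of 1.15, and 0 higher and 1 lower with the median ratio set to 0. The shares of all expressed genes were 31.6% higher and 3.7% lower, at a median of 0.62, and 12% and 10.1% after that rescaling. c1 (GRMZM2G005066), a MYB gene activated by VP1, reached an RPKM of 0.759 in dek44, from 7 reads, and was listed at 0 in wild type, and r1 (GRMZM5G822829) was at 0 in dek44, against 0.0524 in wild type. The flavonoid glucosyltransferase gene BZ1 (GRMZM2G165390) was at 2.44 in dek44, against 0.441 in wild type, the transport gene bz2 (GRMZM2G016241) at 9.16, against 3.58, and a2 (GRMZM6G474234) at 16.5, against 6.93. BZ1 passed the filter for expressed genes through dek44 alone. The fourth past 2-fold, GRMZM2G058432, shares the name pac1 with a WD40 gene (GRMZM2G058292) and may not belong, which leaves 3 of 5. It was at 380 in dek44, against 121 in wild type, and the WD40 gene at 8.98, against 6.93.

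Among genes of aleurone products, 2 of 3 were past 2-fold higher and 0 lower, at a median log2 ratio of 1.87 and the same counts with the median ratio set to 0. Over all expressed genes 31.6% were higher and 3.7% lower, at a median of 0.62, and 12% and 10.1% after that rescaling. The proton pump gene vpp1 (GRMZM2G069095) had 133 in dek44, against 35.8 in wild type, 3.72-fold higher (3.45 to 4.01). The peroxiredoxin gene per-1 (GRMZM2G129761) had 70.5 in dek44, against 79.1 in wild type. A peroxidase gene that shares the name PER1 (GRMZM2G104394) had 23.1 in dek44, against 4.70 in wild type and may not belong, which leaves 1 of 2 higher.

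Surface lipid genes were few. LTP3 (GRMZM2G126397), the 1 lipid transfer protein gene matched, reached an RPKM of 62.5 in dek44, against 0.777 in wild type, from 523 and 6 reads, 80.4-fold higher (36.7 to 220), and past 2-fold under both scalings. Of 2 expressed cuticle and wax genes both were past 2-fold higher, with a median of 1.31, and 0 were with the median ratio set to 0. Over all expressed genes 31.6% were past 2-fold higher, and 12% with the median ratio set to 0. gl8b (GRMZM2G087323), for a reductase of fatty acid elongation, had 1.85 in dek44, against 0.196 in wild type, and AD1 (GRMZM2G167438) had 4.62 in dek44, against 1.17 in wild type. LTP3 and gl8b were under RPKM 1 in wild type and passed the filter for expressed genes through dek44, where they were high.

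The genes closest to each regulator in level were sought among 1954 expressed genes with a name, by distance on log2(RPKM + 1) over the 2 libraries. With 2 values per gene this describes a similar level and ratio and no more. Nearest to nkd1 was phi1 (GRMZM6G477257), at 88.9 in dek44, against 172 in wild type, followed by DMAS1 (GRMZM2G060952). Nearest to nkd2 were TFIIIA (GRMZM2G050939), at 16.5 in dek44, against 13.6 in wild type, and ARF23 (GRMZM2G441325). Nearest to vp1 were CPP8 (GRMZM2G173198), at 7.12 in dek44, against 1.87 in wild type, and the aquaporin gene PIP1-1 (GRMZM2G174807). Nearest to ocl1 were mir3 (GRMZM2G166281), a cysteine protease gene at 11.1 in dek44, against 0.682 in wild type, and SAG (GRMZM2G041175).

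Markers of other cells of the kernel also differed between the libraries. Transfer layer markers were past 2-fold higher in dek44 for 10 of 10 expressed members, leaving out the homonym MRP1, under both scalings, with a summed RPKM of 3798 in dek44, against 468 in wild type. BETL1 (GRMZM2G082785), a defining marker of that layer, was at 0.694 in dek44, against 0.564 in wild type. Both embryo-surrounding region markers were past 2-fold higher under both scalings, with a sum of 118 in dek44, against 8.27 in wild type. The share of all expressed genes past 2-fold higher was 31.6%, and 12% with the median ratio set to 0. Embryo markers were within 2-fold for 3 of 3, with a sum of 457 in dek44, against 401 in wild type, led by the oleosin gene ole1 (372 in dek44, 289 in wild type). Once the median ratio was set to 0, 1 of the 3 was past 2-fold lower, against 10.1% of all expressed genes. It was the oleosin gene ole17 (GRMZM2G480954, 59.4 in dek44, against 89.97 in wild type). Green tissue markers summed to 2.30 in dek44, against 0.912 in wild type over 3 genes, and the 1 expressed gene was within 2-fold under both scalings. None of the marker genes with values was at 0. The part of these other cells in the values of nkd1, nkd2, vp1 and ocl1 was not tested, and in bulk endosperm fewer cells of a type and less RNA per cell cannot be told apart.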

How the data were processed

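The deposited values are RPKM for 41406 gene models in 1 library per genotype, per the file headers. The submitters' processing notes name the aligner Bowtie 0.12.2 and the build B73 RefGen_v3. Counting rule, gene lengths, strand and multiply matching reads are not stated, so near-identical, overlapping and antisense genes are uncertain. Library totals and reads were recovered from the RPKM steps. At these totals 100% of 2000 genes gave whole reads (within 0.001 reads plus a relative 1e-06), against 59.4% at shifted totals. A factor of 2 was restored because 91.1% of lengths were even without it, and larger shared factors were not tested. Reads are the smallest that fit and may be a multiple short. A ratio is the difference of log2(RPKM + 1), dek44 minus wild type, and understates changes of low genes. The calculation was tested on simulated data. Names came from a RefSeq table of another assembly (Zm-B73-REFERENCE-NAM-5.0), which matched 16689 identifiers (40.3%), so no coordinates are given.

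The 4 genes and the 15 lists (10 of pathways, 5 of markers) were chosen with earlier results of these data known. Named were the 4 genes, the 2 nearest named genes of each, and, as a rule, up to 4 of a list with the largest ratios and 2 with the highest RPKM. Of marker lists, whose genes are mostly given as sums, a few are named. Of low genes, vp14, dhn1, EMB5, c1, r1 and BETL1 were named for their role after their values were seen. Python 3.11.15, numpy 2.4.6, pandas 2.3.3, scipy 1.17.1 and matplotlib 3.10.9 were used. The alternatives were other pseudocounts, filters, scalings and thresholds.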

Additional observations from a re-analysis of the deposited data

How the results depend on the processing

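The direction of nkd1 (lower), vp1 and ocl1 (higher) held under each alternative run. The direction of nkd2 did not. Its log2 ratio of 0.20 as reported was -0.51 after centring on the median of all genes, -0.51 after centring on the trimmed mean and -0.38 after scaling to the summed RPKM outside the top 100 genes. Under those 3 scalings nkd1 was at -1.82, -1.82 and -1.69, vp1 at 0.93, 0.92 and 1.04 and ocl1 at 2.18, 2.18 and 2.30, so vp1 was past 2-fold under the last of them and not under the others. With the sum outside the starchy endosperm markers nkd1 was at -1.18. With a pseudocount of 0.1 vp1 was at 1.97 and ocl1 at 3.92, with a pseudocount of 5 at 0.86 and 1.49, and from recovered reads without a pseudocount at 2.03 and 4.12. An added constant weighs most on low levels such as these.

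Of the 4 genes, 2 were higher and 1 lower as reported. With a pseudocount of 5, and after centring on the median or the trimmed mean, 1 was higher, and at 4-fold 1 was higher and 0 lower. Of the other list genes, 15 were higher and 0 lower as reported. The counts were 8 higher and 0 lower with a pseudocount of 5, and 16 higher and 1 lower with a pseudocount of 0.1. They were 7 higher and 3 lower after either centring, and 8 higher and 3 lower after scaling outside the top 100 genes. At 4-fold 5 were higher. Of all expressed genes, 13.9% were higher and 1.80% lower with a pseudocount of 5, and 39.9% and 5.17% with a pseudocount of 0.1. The shares were 11.98% and 10.05% after centring on the median, and 11.9% and 10.1% after centring on the trimmed mean. They were 14.2% and 8.34% after scaling outside the top 100 genes, and 6.92% and 0.863% at 4-fold.

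The recovered-read alternative, the starchy marker scaling and the lists without homonyms (12 higher, 0 lower) were chosen after seeing the data. No paired analysis was possible because there was 1 library per genotype. No replicate could be left out for the same reason. At this depth the 31 wild-type reads of ocl1 and 78 of vp1 set the width of their intervals.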
